A study of Mus musculus with 4 samples.

Results

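Chemokines, the receptors that read them and the receptors that clear them were followed in lymphatic endothelial cells, which line lymphatic vessels, taken from newborn mouse lungs. The members were all rows of the count table whose gene symbol is a systematic chemokine name (Ccl, Cxcl, Cx3cl1 or Xcl1), a systematic receptor name (Ccr, Cxcr, Cx3cr1 or Xcr1), an atypical receptor name (Ackr1 to Ackr4) or Ccrl2, a rule on names that uses no measured value, though it was set with earlier results of these data known. They were 62 of 24421 rows, namely 39 ligands and 23 receptors. The cells were taken at postnatal day 0 by a sort for CD31 and GFP and against CD45, so leukocytes were selected against and endothelium was selected for. If GFP came from the reporter described below, the green signal marked cells in which Cre had acted.

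Both groups carried Prox1-CreER, a Cre recombinase that tamoxifen activates in cells that use the Prox1 gene, and Rosa26-mTmG, a reporter that turns from red to green once Cre has acted. In Jun-cKO mice both copies of Jun were floxed (Junf/f), in Jun-Ctrl mice 1 copy was floxed and the other wild type (Junf/+), so Cre could act on a Jun allele in both groups. The design text calls the mice Prox1-GFP, so the sources used here do not settle what the green signal marked. Each group had 2 libraries, 3 to 5 mice were pooled per group, and the design text has the cells of 3 replicates mixed before RNA amplification. Nothing says that the 2 libraries of a group came from separate animals, so p-values here rest on the spread among these libraries alone, and that spread may be technical. Total counts were 15558476 and 6911821 in the Jun-cKO and 16037416 and 6483514 in the Jun-Ctrl libraries.

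Chemokines are small secreted proteins that guide migrating cells through G protein-coupled receptors. Conventional receptors (Ccr, Cxcr) signal through inhibitory G proteins, whereas atypical receptors (Ackr) bind chemokines without that signal and take many of them up for degradation. Lymphatic endothelium is known for both sides of this system. It secretes CCL21, which draws dendritic cells carrying CCR7 into lymphatic vessels, and it displays ACKR2, which removes inflammatory CC chemokines.

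The labels can be checked by Jun itself. It stood at 524 and 475 CPM (TMM-scaled read counts relative to library size) in the Jun-cKO and at 472 and 433 CPM in the Jun-Ctrl libraries, a log2 fold change of 0.14 with SE 0.12 (adjusted p = 0.354). Each adjusted p is from the quasi-likelihood test of edgeR, adjusted by Benjamini-Hochberg over all tested genes, unless another test is named. With the GC correction the Jun value was 0.34 (adjusted p = 0.0133). Jun was thus not lower in the libraries labelled Jun-cKO, which are called Jun-cKO-labelled below, and every direction rests on that label. Which part of Jun is floxed is not given in the sources used here.

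Marker lists placed the libraries against the sort. In the Jun-cKO-labelled libraries the 12 lymphatic markers summed to 20980 and 21606 CPM, against 16546 and 15706 CPM in Jun-Ctrl, with 4 higher and 2 lower and none at 0. Lyve1, Reln and Mmrn1 carried that difference, with Lyve1 at 8641 and 10260 in Jun-cKO-labelled libraries, against 6402 and 5971 CPM in Jun-Ctrl. Flt4 and Tie1 were lower, with Flt4 at 1201 and 897 in Jun-cKO-labelled libraries, against 1677 and 1499 CPM in Jun-Ctrl. Epithelial markers (17 of 18 tested lower) summed to 210.0 and 205 CPM in the Jun-cKO-labelled samples, against 1813 and 1917 CPM in Jun-Ctrl, and mesenchymal markers (8 of 13 tested lower) to 156 and 163 in Jun-cKO-labelled libraries, against 383 and 391 CPM in Jun-Ctrl. The 5 pan-leukocyte markers, all lower, summed to 39.8 and 35.1 in Jun-cKO-labelled libraries, against 72.0 and 73.9 CPM in Jun-Ctrl, and the neutrophil and mast cell list (6 of 6 tested lower, with Elane and Mcpt4 at 0 throughout) to 166 and 134 in Jun-cKO-labelled libraries, against 403 and 364 CPM in Jun-Ctrl. Monocyte and macrophage markers (2 higher and 5 lower of 9 tested) summed to 348 and 355 in Jun-cKO-labelled libraries, against 345 and 328 CPM in Jun-Ctrl, and blood endothelial markers (4 higher and 6 lower of 14 tested, Sele at 0) to 1652 and 1660 in Jun-cKO-labelled libraries, against 1536 and 1579 CPM in Jun-Ctrl. Lymphocyte markers (1 higher of 3 tested, the granule protease gene Gzma, with Cd3e, Cd8a and Ms4a1 at 0), dendritic cell markers (1 lower of 3 tested, the member Ccl22, with Cd209a and Siglech at 0) and platelet markers (2 lower of 3 tested, Ppbp at 0) summed to at most 31.4 CPM in any library. Gzma alone stood at 21.5 and 22.4 CPM in Jun-cKO-labelled, with no count in either Jun-Ctrl library.

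**Figure D1:**
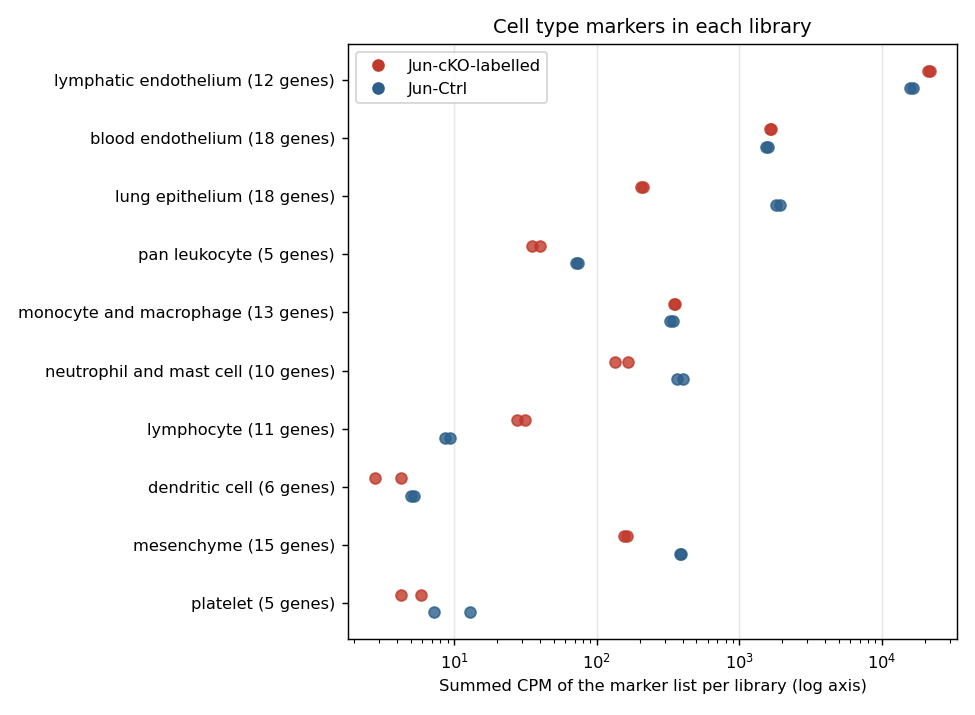
Summed CPM (log axis) of each cell type marker list in the single libraries, Jun-cKO-labelled in red and Jun-Ctrl in blue, with 1 point per library. The epithelial sums lie at 210.0 and 205 CPM in the Jun-cKO-labelled and at 1813 and 1917 CPM in Jun-Ctrl. The lowest lymphatic sum is 15706 CPM.

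Of the 62 members, 13 had no count in any library, 20 had counts too low to pass the expression filter, and 29 were tested. The 29 tested members comprised 21 ligands and 8 receptors. Among them 14 fell and 3 rose in the Jun-cKO-labelled libraries at an adjusted p under 0.05, which is 48.3% lower and 10.3% higher, against 22.5% lower and 19.0% higher of the 12656 genes tested. At least 2-fold changes were called lower for 11 members and higher for 2, against backgrounds of 10.7% and 2.45%. The median log2 fold change was -0.75 over the tested members and 0.0053 over all tested genes. Setting the member at 0 in one group to its bound cannot move the member median, since that member stays below it. Both Jun-cKO-labelled libraries lay below both Jun-Ctrl libraries for 18 members and above them for 5, against 35.9% and 35.4% of all tested genes. Passing the filter depends on the level in either group, so these counts describe the tested members and not all 62.

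Weakly expressed genes fell more often in these libraries, so the members are also given by level. Under 4 CPM (the mean of the 4 libraries) 5 of 12 members fell and 2 rose, where 32.3% and 8.70% of all genes of that level did. Among these, Ccl22, Cxcl13, Cxcl10, Cxcr4 and Ccl11 passed the filter through Jun-Ctrl alone, and Ccl28 through the Jun-cKO-labelled libraries alone. All of them are also part of the counts and the median over the 29 tested members. Their direction was set by the filter, so no conclusion is drawn from the counts under 4 CPM. From 4 to 16 CPM 3 of 9 members fell and none rose, beside 25.7% and 13.2% of genes. At 16 CPM or more 6 of 8 members fell and 1 rose, beside 17.8% and 24.9%.

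**Figure D2:**
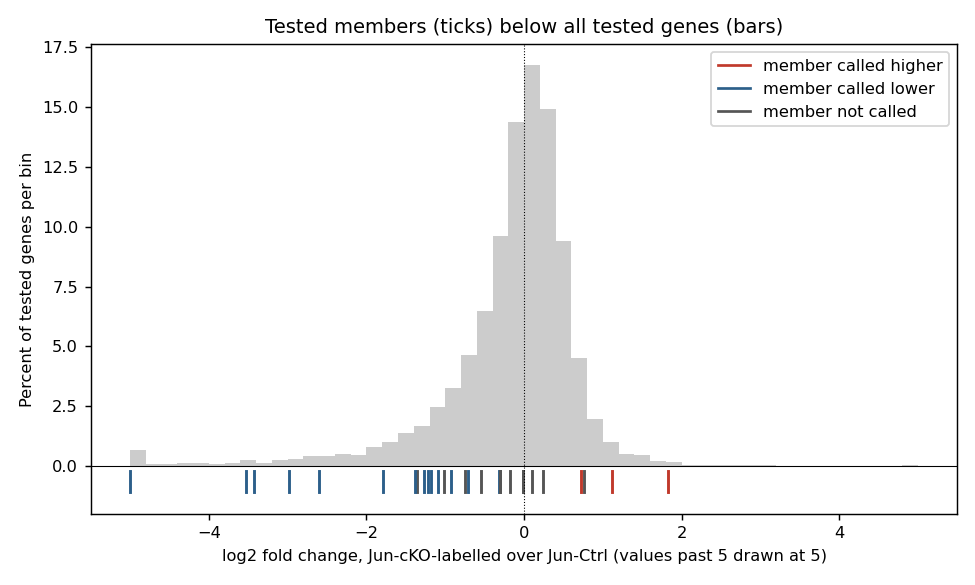
Log2 fold changes of all 12656 tested genes as a histogram (percent of genes per bin) with the 29 tested members as ticks under the axis, red where called higher, blue where called lower and grey where not called. Most ticks lie left of 0, with a median of -0.75, while the bars centre near 0.

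Most of the members that fell were ligands. Of 21 tested ligands 13 fell and 2 rose, and of 8 tested receptors 1 fell and 1 rose. Among CXC ligands 7 of 8 fell (median log2 fold change -2.20), and among CC ligands 5 of 12 fell and 2 rose with a median of -0.84. These ligand sets include Cxcl10, Cxcl13, Ccl22 and Ccl11, which were lower, and Ccl28, which was higher. The filter set the direction of each, so these members add no support for a fall or a rise. Over all tested genes 22.5% fell and 19.0% rose. The receptor counts lie below both shares, and the share of CC ligands that rose is near that of all genes. Per length, on the TPM scale made from the counts and the deposited gene lengths, the ligands summed to 739 and 684 TPM in the Jun-cKO-labelled and to 1402 and 1217 TPM in the Jun-Ctrl libraries. The receptors summed to 250.2 and 247 TPM in the Jun-cKO-labelled and 234 and 215 TPM in the Jun-Ctrl samples. Between ligands and receptors the difference in change was not tested.

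The annotated starts of 4 members are shown. Cxcl1 and Cxcl2 are neighbours on chromosome 5 that fell together, and Ackr2 was the only member receptor called higher. Cxcl10 was the only 1 with an AP-1 match among the 11 members called lower that had a promoter window. Ccl2, Ccl7 and Cxcl16, also called lower, had no window and were not searched. Each window runs from 250 bases before to 50 bases after the start (RefSeq, GRCm38.p6, 5′ to 3′ on the gene's strand), and capitals mark matches on either strand to the AP-1 site TGANTCA, which Jun dimers are known to bind, or to the NF-kB consensus, bound by the factor that drives many inflammatory chemokine genes. They lie at chr5:90890995-90891294 (plus strand) for Cxcl1, chr5:90903649-90903948 (plus strand) for Cxcl2, chr5:92348840-92349139 (minus strand) for Cxcl10 and chr9:121898105-121898404 (plus strand) for Ackr2.
Cxcl1: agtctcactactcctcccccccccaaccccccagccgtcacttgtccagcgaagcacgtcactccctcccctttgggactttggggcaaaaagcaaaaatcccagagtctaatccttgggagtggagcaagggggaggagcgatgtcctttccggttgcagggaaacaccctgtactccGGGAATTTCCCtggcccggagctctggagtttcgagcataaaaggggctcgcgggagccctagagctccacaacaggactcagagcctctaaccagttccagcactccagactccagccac
Cxcl2: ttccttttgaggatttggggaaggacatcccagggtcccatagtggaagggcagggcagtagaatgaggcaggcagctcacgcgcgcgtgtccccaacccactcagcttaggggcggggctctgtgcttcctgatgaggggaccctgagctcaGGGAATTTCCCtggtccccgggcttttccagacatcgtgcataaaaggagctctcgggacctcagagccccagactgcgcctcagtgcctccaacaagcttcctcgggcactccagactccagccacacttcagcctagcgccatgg
Cxcl10: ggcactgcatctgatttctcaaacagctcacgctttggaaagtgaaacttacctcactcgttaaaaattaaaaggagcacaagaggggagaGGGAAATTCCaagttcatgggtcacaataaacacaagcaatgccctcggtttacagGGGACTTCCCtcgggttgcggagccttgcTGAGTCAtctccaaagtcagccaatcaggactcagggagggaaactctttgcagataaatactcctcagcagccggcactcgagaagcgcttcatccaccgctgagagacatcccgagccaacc
Ackr2: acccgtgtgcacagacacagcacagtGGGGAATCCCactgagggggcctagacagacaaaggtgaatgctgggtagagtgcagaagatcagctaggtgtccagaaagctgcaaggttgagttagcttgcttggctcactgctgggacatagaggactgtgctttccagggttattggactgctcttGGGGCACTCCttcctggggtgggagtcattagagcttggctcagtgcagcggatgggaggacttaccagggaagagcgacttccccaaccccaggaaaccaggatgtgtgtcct

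In Cxcl1 and Cxcl2 the capitals are 2 NF-kB matches that overlap, the first starting 71 bases before the Cxcl1 start and 97 bases before the Cxcl2 start. Cxcl10 held the AP-1 match 74 bases and NF-kB matches 159 and 103 bases before its start, and Ackr2 held NF-kB matches 224 and 64 bases before its start. Promoter windows were found for 46 members, of which 8 held an AP-1 match and 11 an NF-kB match in at least 1 window. Over all 32851 windows of that length 7.81% held the AP-1 site and 4.51% the NF-kB consensus. Among 14 called members with a window, 2 had an AP-1 match (Cxcl10, which fell, and Ccl28, which rose) and 4 had an NF-kB match (Cxcl1, Cxcl2 and Cxcl10, which fell, and Ackr2, which rose). A match describes these letters and is not evidence of binding. Some members have several windows, so the shares over windows and over members are not on the same footing.

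The most abundant ligands attract neutrophils and monocytes. Cxcl1, Ccl2 and Cxcl2 held the first 3 ranks per length in both groups and together made up 80.4% and 80.1% of summed ligand TPM in the Jun-cKO-labelled libraries, against 70.5% and 69.1% in the Jun-Ctrl libraries. Adding Cxcl15, Ccl7, Ccl6 and Cxcl17 brought the share to between 94.7% and 95.8% in every library. The order below these differed between groups. Cxcl15 averaged 11.2 TPM (rank 7) in the Jun-cKO-labelled and 138 TPM (rank 4) in the Jun-Ctrl libraries.

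**Figure D3:**
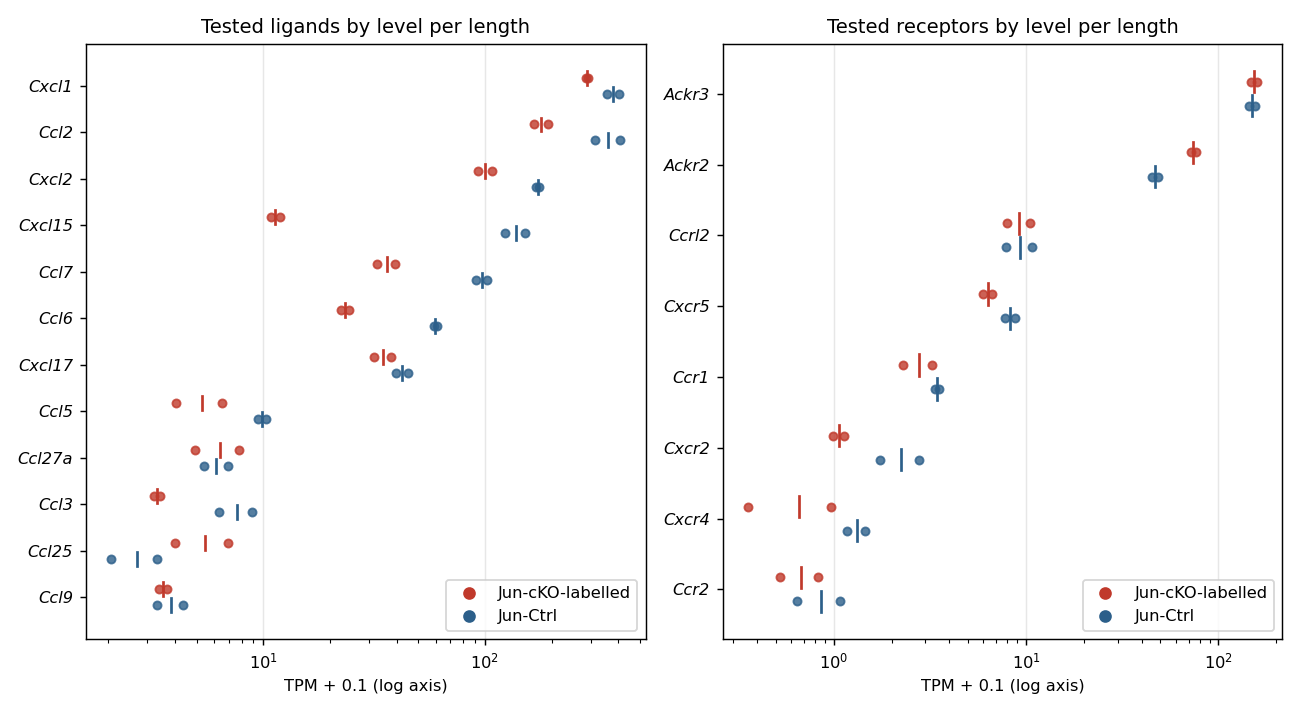
TPM + 0.1 (log axis) of the 12 tested ligands with the highest mean and of the 8 tested receptors, with a point for each library and a bar for each group mean. Cxcl1, Ccl2 and Cxcl2 lead the ligands in both groups, and Ackr3 and Ackr2 lie above the other receptors.

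Cxcl1 and Cxcl2 encode ligands of CXCR2, the main neutrophil chemokine receptor. Cxcl1 stood at 155 and 154 CPM in the Jun-cKO-labelled samples, against 198 and 186 CPM in Jun-Ctrl, and fell 1.25-fold (95% interval 1.06 to 1.46, adjusted p = 0.0217). The groups did not overlap, but the fall was the smallest among called members, and its call was lost without Jun-cKO-labelled replicate 2 (adjusted p = 0.0585), Jun-Ctrl replicate 1 (0.167) or Jun-Ctrl replicate 2 (0.0552). Cxcl2 stood at 64.8 and 57.0 CPM in Jun-cKO-labelled libraries, against 98.5 and 101 CPM in Jun-Ctrl, and fell 1.63-fold (1.38 to 1.93, adjusted p = 6.24e-06), a call kept under all 13 alternatives of scaling, filter, test, block and left-out library. Cxcl3, also a CXCR2 ligand, had only 4 and 2 counts in Jun-cKO-labelled libraries, against 4 and 4 in Jun-Ctrl, and Cxcl5 had 3 counts in 1 Jun-cKO-labelled library and 0 elsewhere. Cxcl2 and Cxcl3 share a stretch of 116 transcript bases at 98.3% identity, longer than a read, so reads of that stretch are uncertain.

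Other CXC ligands of the same chromosome fell as well. Cxcl15, also called lungkine and known as a product of lung epithelium, stood at 14.0 and 12.8 CPM in the Jun-cKO-labelled samples, against 168 and 144 CPM in the Jun-Ctrl libraries (11.6-fold lower, interval 9.50 to 14.1, adjusted p = 1.05e-25). The interferon-induced Cxcl10, which attracts T cells through CXCR3, had 5 and 3 counts in Jun-cKO-labelled libraries, against 40 and 13 in Jun-Ctrl, a 6.07-fold fall (2.89 to 12.7, adjusted p = 9.96e-05), and 133 of its 2252 exon bases overlap the barely counted Art3 on the opposite strand. The B cell chemokine gene Cxcl13 had 2 and 0 counts in Jun-cKO-labelled libraries, against 19 and 6 in Jun-Ctrl, a ratio of summed counts, scaled for library size, of 11.96 in Jun-Ctrl over Jun-cKO-labelled (95% exact binomial counting interval 2.98 to 104, adjusted p = 0.00086). This call was lost in the DESeq2 Wald test (adjusted p = 0.0771), and Cxcl13 had a value under only 10 of the 13 alternatives. All 5 tested members on chromosome 5 fell and their groups did not overlap, beside 22.5% of all tested genes called lower. Both Jun-cKO-labelled libraries lay below both Jun-Ctrl libraries for 35.9% of all tested genes. Cxcl10 and Cxcl13 passed the expression filter through Jun-Ctrl alone, so their direction was set by the filter. Of the 11 members on that chromosome, 3 were at 0 and 3 were counted but not tested. Cxcl9 and Cxcl11, the other ligands of CXCR3, had no count in any library. The annotation gives Cxcl11 as a polymorphic pseudogene, so its count of 0 says little about a CXCR3 ligand. The epithelial marker sums of 210.0 and 205 in Jun-cKO-labelled libraries, against 1813 and 1917 CPM in Jun-Ctrl, moved in the same direction as Cxcl15. Their part in the fall of Cxcl15 was not tested, and in pooled RNA fewer cells of a type and less RNA per cell cannot be told apart.

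Cxcl12, the ligand of CXCR4 and of the scavenger ACKR3, fell 7.88-fold (5.65 to 10.995, adjusted p = 2.05e-14). It stood at 2.23 and 2.66 CPM in the Jun-cKO-labelled samples, against 17.6 and 20.3 CPM in the Jun-Ctrl libraries, so the groups lay far apart. Per length it ranked 20 of the ligands in the Jun-cKO-labelled and 12 in the Jun-Ctrl libraries, at 0.608 and 4.96 TPM. Stromal and blood endothelial cells are known sources of Cxcl12. Beside it the mesenchymal sum was 156 and 163 in Jun-cKO-labelled libraries, against 383 and 391 CPM in Jun-Ctrl, and the blood endothelial sum was 1652 and 1660 in Jun-cKO-labelled libraries, against 1536 and 1579 CPM in Jun-Ctrl. Within the blood endothelial list Nrp1 (7.53-fold), Car4 (5.51-fold), Selp (2.58-fold), Plvap (2.07-fold), Cd34 (1.94-fold) and Gja4 (1.28-fold) fell, while Ednrb, Hey1, Gpihbp1 and Vwf rose, Ednrb to 545 and 565 CPM in Jun-cKO-labelled libraries, against 296 and 286 CPM in Jun-Ctrl. The part of these cells in the result was not tested.

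Cxcl16 and Cx3cl1 encode the 2 chemokines that are made as membrane-anchored proteins, ligands of CXCR6 and CX3CR1. Cxcl16 stood at 1.90 and 1.92 CPM in the Jun-cKO-labelled samples, against 5.88 and 7.80 CPM in Jun-Ctrl (3.47-fold lower, 2.25 to 5.34, adjusted p = 7.07e-06). Of its 3021 annotated exon bases, 552 overlap Zmynd15 on the opposite strand, and Zmynd15 itself had at most 14 counts in a library. Cx3cl1, which endothelium uses to hold passing leukocytes, stood at 3.34 and 2.21 CPM in Jun-cKO-labelled libraries, against 7.46 and 5.81 CPM in Jun-Ctrl (2.32-fold lower, 1.57 to 3.43, adjusted p = 0.000482). Its call was lost without Jun-Ctrl replicate 1 (adjusted p = 0.0810). Cxcl17, a mucosal chemokine, was the only tested CXC ligand that did not pass, at 15.99 and 13.4 in Jun-cKO-labelled libraries, against 15.6 and 18.8 CPM in Jun-Ctrl with overlapping groups (log2 fold change -0.18, SE 0.18).

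Among CC ligands, the monocyte chemokines Ccl2 and Ccl7 fell. Ccl2, encoding the main ligand of CCR2, stood at 86.8 and 75.9 CPM in the Jun-cKO-labelled samples, against 169.8 and 139.7 CPM in the Jun-Ctrl libraries (1.90-fold lower, 1.61 to 2.25, adjusted p = 2.47e-08). Ccl7, its neighbour on chromosome 11 and another CCR2 ligand, stood at 14.5 and 17.7 CPM in Jun-cKO-labelled libraries, against 42.3 and 40.1 CPM in Jun-Ctrl (2.61-fold lower, 2.09 to 3.25, adjusted p = 8.32e-10). Neither pair of groups overlapped, and both calls held under all 13 alternatives. On the TPM scale Ccl7 was at 0.168 and 0.236 of the Ccl2 level in the Jun-cKO-labelled and at 0.251 and 0.289 in the Jun-Ctrl libraries. Ccl12, a mouse CCR2 ligand of the same cluster, had no count.

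Ccl6 and Ccl3 are chemokine genes known from macrophages and other myeloid cells. Ccl6 stood at 19.4 and 18.2 CPM in the Jun-cKO-labelled samples, against 45.1 and 46.5 CPM in Jun-Ctrl (2.42-fold lower, 1.97 to 2.98, adjusted p = 1.49e-09). Ccl3 had 21 and 10 counts in Jun-cKO-labelled libraries, against 42 and 25 in Jun-Ctrl (2.13-fold lower, adjusted p = 0.0215), and lost its call in DESeq2 (adjusted p = 0.186) and without Jun-cKO-labelled replicate 1 (0.141), Jun-Ctrl replicate 1 (0.0521) or Jun-Ctrl replicate 2 (0.198). Ccl9, on the same stretch of chromosome 11 as both, did not pass, at 5.504 and 6.05 in Jun-cKO-labelled libraries, against 4.97 and 7.04 CPM in Jun-Ctrl. Pan-leukocyte markers fell beside Ccl6 and Ccl3, with Ptprc, the gene of CD45, at 3.60 and 2.95 in Jun-cKO-labelled libraries, against 8.49 and 7.96 CPM in Jun-Ctrl. Of 9 tested monocyte and macrophage markers Lyz2 (3.12-fold), Cd68 (2.18-fold), Csf1r (4.31-fold), Ly6c2 (3.97-fold) and Marco (3.21-fold) fell, and the list's median log2 fold change was -1.12. Mrc1 and Cd14 of that list rose, and Mrc1, its most abundant gene and also used by lymphatic endothelium, stood at 246 and 244 CPM in Jun-cKO-labelled libraries, against 169.8 and 141 CPM in Jun-Ctrl. The part of leukocytes in these falls was not tested.

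Ccl22, a ligand of CCR4 known from dendritic cells and macrophages, was at 0 counts in both Jun-cKO-labelled libraries, against 24 and 17 counts in the Jun-Ctrl libraries. With 3 counts over the Jun-cKO-labelled group as its floor, it was at least 13.1-fold lower (adjusted p = 1.11e-06), and counting intervals and floors cover counting error only, since amplified reads are not independent molecules. Ccl22 passed the expression filter through Jun-Ctrl alone, so its direction was set by the filter. Of the 5 other dendritic cell markers, Cd209a and Siglech were at 0 in every library. Batf3 had 55 and 10 counts in Jun-cKO-labelled libraries, against 40 and 11 in Jun-Ctrl, and Itgax had 10 and 9 counts in Jun-cKO-labelled libraries, against 16 and 5 in Jun-Ctrl, neither passing the test. Flt3 had no count in Jun-cKO-labelled libraries, against 2 and 1 in Jun-Ctrl. The part of dendritic cells in the result was not tested. Ccl17, the other CCR4 ligand and a neighbour of Ccl22 on chromosome 8, had 2 and 4 counts in Jun-cKO-labelled libraries, against 9 and 0 in Jun-Ctrl and was not tested.

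Ccl25 and Ccl28 were the ligands that rose, both from few counts. Ccl25, known for drawing T cells to thymus and gut through CCR9, had 74 and 19 counts in the Jun-cKO-labelled libraries, against 35 and 9 in the Jun-Ctrl libraries (2.16-fold higher, 1.33 to 3.50, adjusted p = 0.0083). Its annotated exons (GENCODE M21) overlap Elavl1 on the opposite strand by 204 of 7445 bases. The deposited length of Ccl25 is 1274 bases, so the counted gene model differed and may lack that overlap. Elavl1 also rose, with a log2 fold change of 0.58. If the overlap was counted, reads of the 2 genes there cannot be told apart without strand. The Ccl25 call was lost in DESeq2 (adjusted p = 0.162), without Jun-cKO-labelled replicate 1 (0.399) and without Jun-Ctrl replicate 1 (0.0598) or 2 (0.103). Ccl28, a mucosal chemokine gene, had 21 and 7 counts in Jun-cKO-labelled libraries, against 6 and 2 in Jun-Ctrl (3.54-fold higher, 1.53 to 8.18, adjusted p = 0.0123). Its call was lost in DESeq2 (adjusted p = 0.223) and without Jun-Ctrl replicate 2. Ccl28 had a value under only 10 of the 13 alternatives. It passed the expression filter through the Jun-cKO-labelled libraries alone, so its direction was set by the filter.

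**Figure D4:**
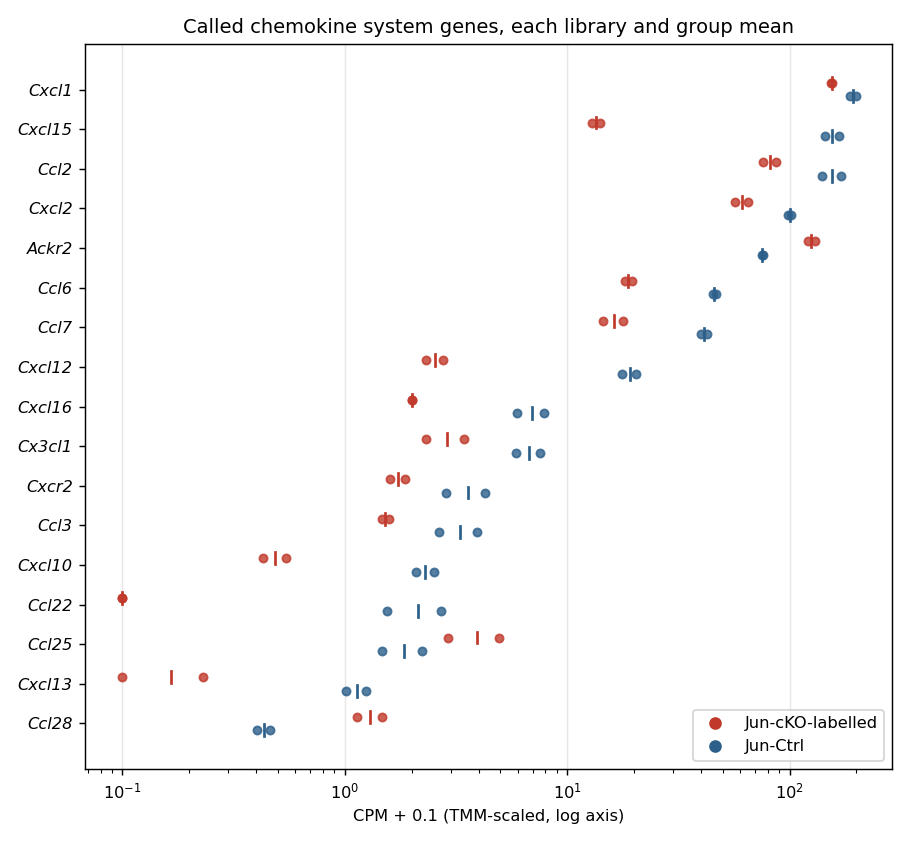
CPM + 0.1 (log axis) of the 17 called members in each library, with bars at the group means, Jun-cKO-labelled in red above Jun-Ctrl in blue. The red points lie left of the blue for 14 genes and right of them for Ackr2, Ccl25 and Ccl28.

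The remaining tested CC ligands did not pass. Ccl5, a T cell and monocyte chemokine gene, was at 1.90 and 1.18 CPM in the Jun-cKO-labelled samples and at 2.79 and 2.75 CPM in Jun-Ctrl (log2 fold change -0.75, SE 0.38, adjusted p = 0.105). The eosinophil chemokine gene Ccl11 had 12 and 1 counts in Jun-cKO-labelled libraries, against 19 and 8 in Jun-Ctrl (log2 fold change -1.02, SE 0.56). Ccl11 passed the expression filter through Jun-Ctrl alone, so its direction was set by the filter. Ccl4, a close relative of Ccl3, had 18 and 9 counts in Jun-cKO-labelled libraries, against 15 and 2 in Jun-Ctrl (log2 fold change 0.77, SE 0.53). Ccl27a, a skin chemokine gene, was at 6.29 and 3.99 in Jun-cKO-labelled libraries, against 4.003 and 5.51 CPM in Jun-Ctrl with overlapping groups. Its transcripts match Ccl27b over 425 bases at 99.3% identity, and Ccl27b was at 0 throughout, so the split of reads between these copies is uncertain.

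Ccl21a, Ccl21b and Ccl21c, the genes of the chemokine most associated with lymphatic endothelium, had 0 counts in every library, while Lyve1 stood at 8641 and 10260 CPM in the Jun-cKO-labelled and 6402 and 5971 CPM in the Jun-Ctrl libraries. The annotated Ccl21a and Ccl21b transcripts match over 402 bases at 99.5% identity, and Ccl21a matches the predicted gene Gm21541 over 870 bases at 99.3% identity. How the counting treated reads that match several genes is not given in the sources used here, so the counts of 0 say nothing firm about Ccl21. Ccl19, the other CCR7 ligand, had 3 and 7 counts in Jun-cKO-labelled libraries, against 2 and 3 in Jun-Ctrl, and it too has near copies, such as Gm2564 over 707 bases at 98.9% identity.

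Among the member receptors, the scavenging receptors Ackr2 and Ackr3 made up most transcript per length. They held 92.2% and 90.7% of summed member receptor TPM in the Jun-cKO-labelled and 86.9% and 88.7% in the Jun-Ctrl libraries. That sum leaves out Gpr182, an atypical chemokine receptor outside the name rule. It stood at 187 and 152 TPM in Jun-cKO-labelled libraries, against 124 and 117 TPM in Jun-Ctrl, above Ackr2 in every library. Ackr2, the decoy receptor of inflammatory CC chemokines, stood at 121 and 129.6 CPM in the Jun-cKO-labelled samples, against 75.8 and 75.1 CPM in the Jun-Ctrl libraries. It rose 1.66-fold (1.41 to 1.95, adjusted p = 2.15e-06), with groups that did not overlap and a call kept under all 13 alternatives. The lymphatic marker sums, 20980 and 21606 CPM in Jun-cKO-labelled libraries, against 16546 and 15706 CPM in Jun-Ctrl, were higher too, a difference carried by Lyve1, Reln and Mmrn1. In that list Lyve1, Reln, Mmrn1 and Cldn5 rose, Flt4 (1.51-fold) and Tie1 (1.30-fold) fell, and Prox1 did not pass, at 34.2 and 31.9 CPM in Jun-cKO-labelled libraries, against 39.3 and 43.6 CPM in Jun-Ctrl. The part of lymphatic content in the rise of Ackr2 was not tested. Ackr3, which clears CXCL12 and adrenomedullin, stood at 205 and 192 in Jun-cKO-labelled libraries, against 185 and 185 CPM in Jun-Ctrl. Its fold change of 1.07 (0.917 to 1.26, adjusted p = 0.491) did not pass, and the interval leaves room for a change in either direction. Ackr2 TPM was 0.453 and 0.519 of Ackr3 TPM in the Jun-cKO-labelled and 0.315 and 0.312 in the Jun-Ctrl libraries.

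The other atypical receptors were barely counted. Ackr4, which clears CCL19, CCL21 and CCL25, had 2 and 1 counts in the Jun-cKO-labelled and 6 and 2 in the Jun-Ctrl libraries and shares 479 of 5380 exon bases with Acad11 on the opposite strand, and Ackr1, a marker of venules, had 5 and 1 in Jun-cKO-labelled libraries, against 1 and 0 in Jun-Ctrl.

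Conventional receptors were low. Cxcr2, the neutrophil receptor for Cxcl1 and Cxcl2, had 23 and 12 counts in the Jun-cKO-labelled libraries, against 69 and 18 in the Jun-Ctrl libraries, and fell 2.28-fold (1.38 to 3.76, adjusted p = 0.00687). This call was lost in DESeq2 (adjusted p = 0.169), without Jun-cKO-labelled replicate 1 (0.0845) and without Jun-Ctrl replicate 1 (0.308). Neutrophil genes fell beside it, S100a9 standing at 86.4 and 69.8 in Jun-cKO-labelled libraries, against 225 and 208 CPM in Jun-Ctrl and Ngp at 12.8 and 7.97 in Jun-cKO-labelled libraries, against 48.1 and 37.0 CPM in Jun-Ctrl, and their part in the result was not tested. Stretches of up to 193 bases of annotated Cxcr2 transcripts match unrelated genes at 97% identity or more, so part of its reads is uncertain.

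Cxcr4, the signalling receptor for CXCL12, had 4 and 6 counts in the Jun-cKO-labelled and 21 and 7 in the Jun-Ctrl libraries (log2 fold change -1.35, SE 0.59, adjusted p = 0.0610). The change did not pass, but did in limma-voom (adjusted p = 0.0366) and with a correction for GC content (0.0424). Cxcr4 passed the expression filter through Jun-Ctrl alone. The filter thus set its direction, and these calls add no support for a fall. Cxcr5, the B cell receptor for CXCL13, stood at 9.57 and 8.71 in Jun-cKO-labelled libraries, against 11.7 and 11.02 CPM in Jun-Ctrl (log2 fold change -0.31, adjusted p = 0.222). Its annotated exons overlap Bcl9l on the opposite strand by 110 of 3332 bases, and Bcl9l fell with a log2 fold change of -2.77. The myeloid receptor Ccr1 was at 3.47 and 5.02 in Jun-cKO-labelled libraries, against 4.79 and 5.35 CPM in Jun-Ctrl, and the monocyte receptor Ccr2 had 13 and 10 counts in Jun-cKO-labelled libraries, against 30 and 7 in Jun-Ctrl. Both overlapped between groups, with log2 fold changes of -0.30 (SE 0.28) and -0.55 (SE 0.47).

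Ccrl2, an atypical relative that holds the attractant chemerin at the cell surface without signalling, stood at 9.83 and 13.1 CPM in the Jun-cKO-labelled samples and at 12.4 and 9.64 CPM in the Jun-Ctrl libraries. The groups overlapped, with a fold interval of 0.747 to 1.31. The untested receptors included Cxcr3 (1 and 2 counts in Jun-cKO-labelled libraries, against 14 and 5 in Jun-Ctrl), Xcr1 (9 and 1 in Jun-cKO-labelled libraries, against 9 and 2 in Jun-Ctrl), Cx3cr1, Ccr9, Ccr4, Ccr10, Ccr7, Cxcr6 and Ccr6 beside Ackr4 and Ackr1, none above 14 counts in a library. Ccr9, Ccr7, Cxcr6 and Ccr6 had counts in Jun-Ctrl alone, at most 8 in a library, and no test was made on them. Cxcr1, Ccr3 and Ccr8 were at 0 throughout, as were the ligand genes Xcl1, Ccl8 and Ccl26 beside those already named. Ccl24, Ccl20, Cxcl14 and Ccl1 had at most 4 counts in a library.

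**Figure D5:**
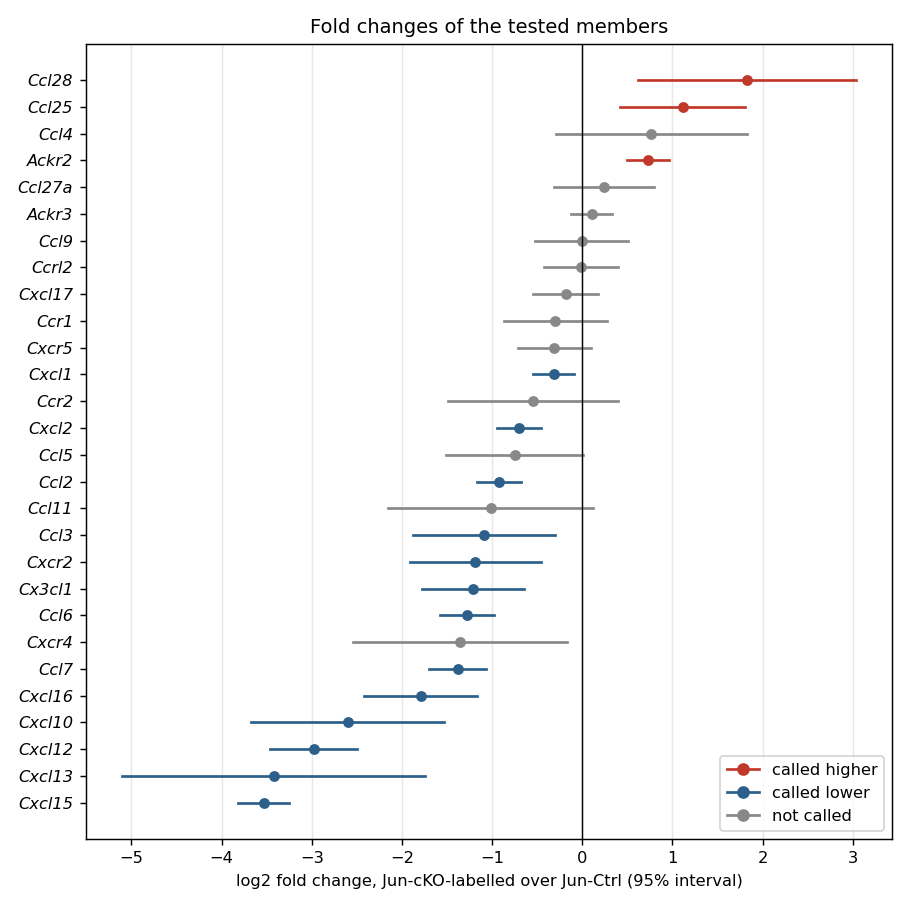
Log2 fold change with its 95% interval for 28 tested members, Jun-cKO-labelled over Jun-Ctrl. Ccl22 is left out because it was at 0 in both Jun-cKO-labelled libraries. Cxcl15, Cxcl13, Cxcl12 and Cxcl10 lie lowest and Ccl28 highest, and the intervals are wide where counts are few.

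Genes of the chemokine system with other names moved both ways. Of 11 tested, 3 rose and 4 fell, with a median log2 fold change of -0.06, beside 19.0% higher and 22.5% lower of all tested genes. Gpr182, an atypical chemokine receptor of lymphatic and sinusoidal endothelium, rose 1.48-fold (176 and 145 CPM in Jun-cKO-labelled libraries, against 109 and 109.7 CPM in the Jun-Ctrl libraries, adjusted p = 0.000147). Dpp4, a surface protease that inactivates CXCL12 and other chemokines, fell 2.61-fold (adjusted p = 0.00109) at 1.77 and 1.33 in Jun-cKO-labelled libraries, against 4.12 and 4.44 CPM in Jun-Ctrl. Pitpnm3, reported in human cells as a receptor for CCL18, fell 7.69-fold (adjusted p = 1.14e-05) at 0.197 and 0.738 in Jun-cKO-labelled libraries, against 2.85 and 3.06 CPM in Jun-Ctrl. Its direction was set by the expression filter, which it passed through Jun-Ctrl alone. Cmtm7, of a chemokine-like membrane family, rose 1.40-fold (adjusted p = 0.00273).

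Of 37 tested genes of receptor signalling and desensitisation, 7 rose and 9 fell, with a median log2 fold change of -0.04, shares near the 19.0% higher and 22.5% lower of all tested genes. The inhibitory G protein subunit gene Gnai2 fell 2.31-fold (243 and 211 CPM in Jun-cKO-labelled libraries, against 520.2 and 531 CPM in the Jun-Ctrl libraries, adjusted p = 1.49e-11). Rgs16, which speeds the shut-off of these G proteins, fell 2.09-fold (adjusted p = 2.86e-10), Gna11, of the Gq class, fell 2.36-fold (adjusted p = 8.32e-10), and the G protein subunit gene Gng2 rose 1.46-fold (adjusted p = 0.000183). The count of genes that rose was 3 with the GC correction, 4 with library totals, upper-quartile scaling or the stricter filter, and 2 to 9 with 1 library left out (2 without Jun-Ctrl replicate 1, 4 without Jun-Ctrl replicate 2 or Jun-cKO-labelled replicate 2). In DESeq2 5 rose and 5 fell.

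Of 41 tested inducers of inflammatory chemokine genes, 11 rose and 5 fell (median log2 fold change 0.04), beside 19.0% higher and 22.5% lower of all tested genes. The TNF receptor gene Tnfrsf1a rose 1.93-fold (63.4 and 60.7 CPM in Jun-cKO-labelled libraries, against 31.8 and 32.6 CPM in the Jun-Ctrl libraries, adjusted p = 1.24e-07), the NF-kB kinase gene Ikbkb 1.52-fold (adjusted p = 4.28e-05), the cytokine gene Il1b 1.604-fold (adjusted p = 9.51e-05) and the interferon receptor gene Ifnar2 1.47-fold (adjusted p = 0.00015). Among those that fell, named after their values were seen, were the cytokine gene Tnf (2.18-fold, adjusted p = 0.00533) and the NF-kB subunit genes Nfkb2 (1.67-fold, adjusted p = 0.00726) and Rela (1.33-fold, adjusted p = 0.00537). The count that rose was 7 without Jun-cKO-labelled replicate 1, 6 with either Jun-Ctrl library left out and 6 in DESeq2, and the count that fell was 2 with either left out and 1 in DESeq2.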

How the data were processed

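RNA was read from lymphatic endothelial cells of 2 groups with 2 libraries each, sequenced as reads of 79 bases, per the labels' protocols. The authors deposited raw counts per gene and a gene length in bases. The build mm10 and the tools edgeR 3.28.1, featureCounts 1.6.4 and STAR 2.7.2a appear, with no role, per the submitters' processing notes. The sources used here name neither an annotation nor a strand setting.

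Titles tied columns to libraries, and replicate 2 is the library titled as the replicate. Counts were tested with edgeR 4.0.16 (R 4.3.3; TMM, filterByExpr, glmQLFit, glmQLFTest) as Jun-cKO minus Jun-Ctrl over all 4 libraries, with Benjamini-Hochberg adjustment over 12656 genes and calls at 0.05. CPM values are scaled by TMM, and TPM values use the deposited lengths. Alternatives were other scalings and filters, DESeq2 1.42.0, limma-voom (limma 3.58.1), a block on the replicate mark, leaving out each library, other thresholds, and an offset from a loess curve (span 0.5) of each library on transcript GC content, known for 96.2% of tested genes and all 29 tested members. Exon overlaps, positions and near copies (BLAST 2.17.0, at least 97% identity over 79 bases) come from GENCODE M21 (GRCm38), and promoters from RefSeq. Deposited lengths of some members are shorter than these exon models (1100 against 2252 bases for Cxcl10, 2109 against 5380 for Ackr4). The overlaps may therefore not hold for the counted models. Protein sequences were not used here.

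The members and gene lists were chosen with earlier results of these data known. Every tested member is named, 1 untested member is not reported here by name, and in each list up to 4 called genes with the smallest p, or others where a result turns on them. Within a group the libraries differed beyond counting error: the median chi-square over genes was 1.48 for Jun-cKO and 1.21 for Jun-Ctrl, where sampling alone gives 0.455.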

Additional observations from a re-analysis of the deposited data

How the results depend on the processing

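Of 367 single-gene values for Jun and the tested members under the alternatives, 335 kept direction and side of the threshold, 18 lost a call, 4 gained one and 10 changed sign, none of these for a called gene. The members that fell numbered 9 with the filter of 50 counts in 2 libraries and 9 to 15 with 1 library left out, and those that rose 1 with that filter, 1 in DESeq2 and 1 to 3 with 1 library left out. Their median log2 fold change was -0.36 with that filter, which tests fewer members, and -0.91 to -0.61 with 1 library left out. With the replicate block 14 members fell and 3 rose, 5426 genes were called in all, and no member's call changed; the mark is no stated pairing, and like-marked libraries deviated together only weakly (r = 0.079 across genes). Over all genes 5251 calls became 3366 in DESeq2 (1474 higher, 1892 lower), 1670 where 2-fold changes alone counted (310 and 1360), and 2992 to 4794 with 1 library left out (1177 to 2214 higher, 1815 to 2656 lower), the causes not tested. The changes of sign in log2 fold change were Ccl9 without a filter (0.00074), in limma-voom (0.034) and, with 1 library left out, within -0.31 to 0.18. The others were Ccrl2 in DESeq2 (0.032) and, with 1 library left out, Ccrl2 (-0.20 to 0.21), Ccl27a (-0.19 to 0.48) and Ccr1 (-0.51 to 0.0067). Depth limits the members under 4 CPM: 3 counts equal 0.197 and 0.443 CPM in the Jun-cKO-labelled and 0.182 and 0.459 CPM in the Jun-Ctrl libraries.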
